A study of Mus musculus with 12 samples.

Results

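Inflammasomes are protein assemblies of the cytosol that activate caspases. The 8 genes described here encode their core parts, the sensors Nlrp3, Aim2, Nlrc4 and Naip2, the adaptor Pycard (ASC), the inflammatory caspases Casp1 and Casp4, and Gsdmd, whose product forms the pore. They were chosen by name, and each was found by its Ensembl identifier among 35275 listed genes. All 8 passed the filter on low counts, as did 12849 genes in all. RNA was taken from wildtype mouse bone marrow-derived macrophages (BMDMs) grown with MCSF, IL4 and IL10, cytokines that drive alternative (M2) activation. The cells were exposed for 6 days to DMSO, the solvent, to olaparib, an inhibitor of the PARP enzymes, or to MNA (methyl-nicotinamide), a derivative of NAD. Each group had 4 libraries, and the study's legend gives 4 donor mice. No group carried a transgene or deletion, and no agent that triggers an inflammasome is named, so the values are transcript levels in unstimulated M2-polarized cells.

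An inflammasome is assembled when a sensor detects a danger sign. NLRP3 responds to membrane damage and loss of potassium, AIM2 binds DNA in the cytosol, and NAIP proteins bind bacterial flagellin or secretion-system parts and then recruit NLRC4. Most sensors nucleate filaments of ASC, on which caspase-1 is activated. Caspase-1 matures IL-1 beta and IL-18 and cleaves gasdermin D, whose fragments perforate the cell membrane and cause pyroptosis. The product of mouse Casp4, also known as caspase-11, binds cytosolic lipopolysaccharide directly and cleaves the same gasdermin. In macrophages the transcript of Nlrp3 is known to be low until a priming signal arrives.

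The libraries held 21146291 to 31446849 counts on genes. MNA replicate 2 stood apart from the other MNA libraries. On the 2 leading principal components (49.8% and 24.9% of the variance) it lay with DMSO. Its summed level of alternative activation markers was 32300 CPM (counts scaled to a common library total). The other MNA libraries had 1490 to 2090 CPM and the DMSO libraries 33500 to 53700 CPM. The sum was mostly Chil3, at 30310 CPM in replicate 2, 547 to 884 in the other MNA libraries and 30410 to 50790 with DMSO. Arg1, Mrc1 and Retnla in replicate 2 (359, 519 and 543 CPM) lay above the other MNA libraries but below every DMSO library. Mgl2 had 552 to 799 CPM in the other MNA libraries and 472 to 917 with DMSO. MNA replicate 2 was kept as labelled, its values are given apart, and tests are given with and without it. All 6 macrophage markers passed 3 counts in a library of every group. Fcgr1 was scarce, at 0.56 to 1.24 CPM with DMSO and 0.116 to 0.411 with MNA without replicate 2. The 6 summed to 2240 to 2470 CPM with DMSO, 3340 to 3650 with olaparib and 2310 to 3850 with MNA (3540 to 3850 without replicate 2). With olaparib they moved in unlike directions. By the test given below, Itgam, Adgre1 and Mertk were called higher (log2 fold changes 1.74, 1.02 and 1.16) and Cd68 lower (−0.55). Csf1r and Fcgr1 were not called. With MNA, over 12 libraries, Csf1r was called higher (1.45), at 1649 to 1838 CPM without replicate 2 against 436 to 605 with DMSO. Adgre1 (0.19), Itgam (0.57), Mertk (−0.05), Cd68 (−0.19) and Fcgr1 (−1.19) were not called with MNA. The monocyte markers Ly6c2 and Ccr2 summed to at most 5.47 CPM and the 7 neutrophil markers to at most 44.3 CPM, the latter in MNA replicate 4. Dendritic cell markers did not exceed 20.5 CPM, and those of B cells, T and NK cells, mast cells and basophils, eosinophils, stromal and erythroid cells did not exceed 6.15 CPM.

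Levels are CPM after TMM normalization, and differences are log2 fold changes from edgeR's quasi-likelihood test fitted to all 12 libraries. A gene was called higher or lower at a Benjamini-Hochberg adjusted p under 0.05 over all tested genes. In bulk RNA, fewer cells of a type and less RNA per cell cannot be told apart. Per length of annotated exons, the highest level with DMSO was that of Casp1, at 43.8 ± 1.96 CPM per kb (SD, n = 4). Gsdmd followed at 29.9 ± 2.46, then Aim2 at 13.8 ± 0.546, Pycard at 12.6 ± 0.783 and Naip2 at 10.1 ± 0.388. Casp4 had 4.91 ± 0.827 CPM per kb, Nlrp3 1.44 ± 0.362 and Nlrc4 1.33 ± 0.276. In this order Nlrp3 overlapped Nlrc4 and Aim2 overlapped Pycard, and the remaining neighbours did not overlap between libraries. With the longest transcript as the length the order with DMSO stayed the same, while Casp4, Aim2 and Gsdmd rose to 9.58, 17.0 and 39.7 CPM per kb. For Pycard both lengths were 3800 bases, close to its whole gene body, so this check could not move it. A shorter transcript in use would place Pycard higher, which was not tested.

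**Figure D1:**
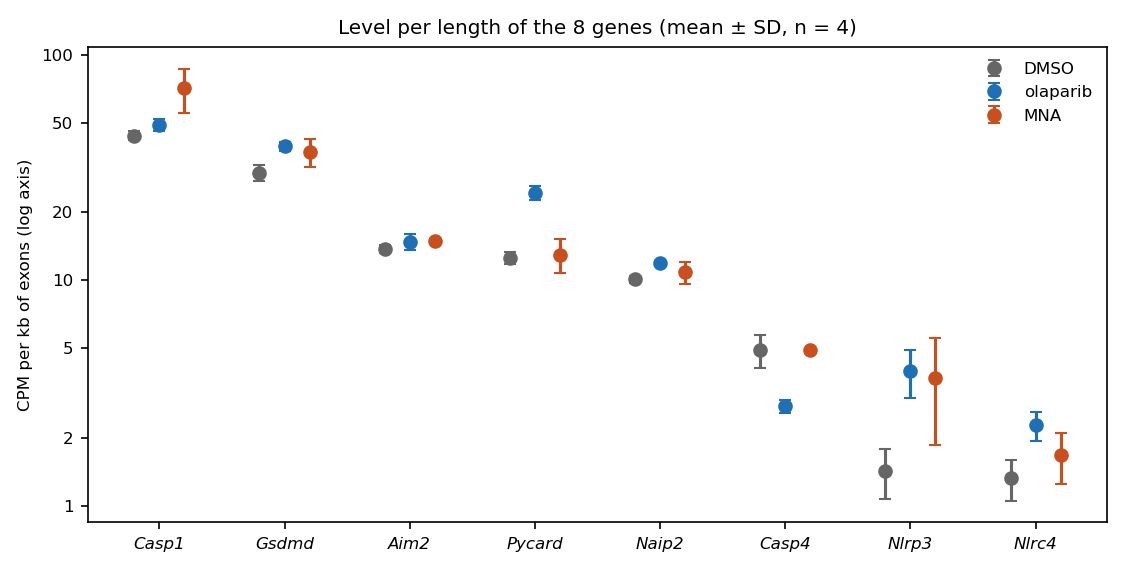
Level of each gene per kb of exons (CPM per kb, log axis) in DMSO, olaparib and MNA BMDMs, ordered by the DMSO level; points are means and bars SD over 4 libraries. By annotated exon length the caspase-1 gene leads at 43.8 CPM per kb with DMSO and Nlrc4 is lowest at 1.33. Pycard moves above Aim2 with olaparib, and its place rests on a length of 3800 bases.

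The start regions of 3 genes are shown, those of Casp1 and Casp4 because they are neighbours that differed in unlike ways, and that of Pycard because the olaparib libraries stood apart in it. Casp1 and Casp4 lie on the same strand of chromosome 9 with 1562 bases between them. The windows are from RefSeq on GRCm38.p6 and are written 5′ to 3′ along the gene, chr7:127993818-127994117 (minus strand) for Pycard, chr9:5298267-5298566 (plus) for Casp1 and chr9:5308599-5308898 (plus) for Casp4. Capitals mark the letters GAGGAAGT, a core bound by the myeloid factor PU.1, read on either strand.
Pycard: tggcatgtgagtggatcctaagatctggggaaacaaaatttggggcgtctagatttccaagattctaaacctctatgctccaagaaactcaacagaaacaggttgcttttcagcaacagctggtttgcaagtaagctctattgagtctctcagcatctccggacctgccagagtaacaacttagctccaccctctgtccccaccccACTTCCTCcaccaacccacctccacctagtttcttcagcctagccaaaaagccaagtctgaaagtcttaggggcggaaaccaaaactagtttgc
Casp1: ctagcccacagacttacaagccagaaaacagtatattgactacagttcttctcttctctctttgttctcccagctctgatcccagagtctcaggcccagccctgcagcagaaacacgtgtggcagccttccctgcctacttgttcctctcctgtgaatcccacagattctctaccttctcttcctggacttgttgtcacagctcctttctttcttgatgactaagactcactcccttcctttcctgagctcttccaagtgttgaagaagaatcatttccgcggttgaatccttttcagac
Casp4: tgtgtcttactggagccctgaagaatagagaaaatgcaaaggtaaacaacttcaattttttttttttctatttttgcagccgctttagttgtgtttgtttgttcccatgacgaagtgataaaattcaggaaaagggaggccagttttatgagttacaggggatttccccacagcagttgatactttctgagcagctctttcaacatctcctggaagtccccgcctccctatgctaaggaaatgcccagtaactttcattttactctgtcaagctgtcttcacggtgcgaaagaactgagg
Of the 8 genes, 7 matched a window, 9 windows in all. The PU.1 core was found in 2 of them, at positions −44 to −37 of Pycard and −113 to −106 of Aim2, against 3.2% of all 32851 windows. Both strands were read for each motif. Neither the core of interferon-stimulated response elements (3.44% of all windows) nor TTCNNNGAA, a core of STAT sites (8.3%), was found in a window of these genes, which says only that these letters are not in these windows.

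Olaparib and DMSO were compared to ask how the PARP inhibitor changes macrophage transcripts. Of the 8 genes, 5 were called higher (Pycard, Nlrp3, Nlrc4, Gsdmd and Naip2) and 1 lower (Casp4), while Casp1 and Aim2 were not called. Over all tested genes 14.3% were called higher and 12.8% lower. The same 6 genes had groups that did not overlap, where 20.7% of all genes were higher and 20.3% lower in that way. The median log2 fold change of the 8 genes was 0.32, and that of all tested genes was 0.0038. Without MNA replicate 2 Casp1 was called as well, which made 6 higher and 1 lower, and 22.5% of all genes were called higher and 21.2% lower.

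MNA and DMSO were compared to ask what the NAD derivative alone changes. Casp1, Nlrp3 and Gsdmd were called higher, against 16.3% of all tested genes, and none of the 8 was lower (12.3% of all genes), nor was any at an unadjusted p under 0.05 or with DESeq2. Groups did not overlap for Casp1 and Aim2, both higher, as for 6.24% of all genes, while 6.12% were lower in that way. The median log2 fold change was 0.21 for the 8 genes and 0.0002 for all genes. Without MNA replicate 2, Nlrc4 was also called, 27.2% of all genes were called higher and 26.9% lower, and the non-overlapping genes were Casp1, Nlrp3, Aim2 and Gsdmd, all higher (27.1% of all genes higher, 27.0% lower). The 3 calls from all libraries rest on a spread shared with the olaparib libraries. In a fit of the 8 MNA and DMSO libraries alone, edgeR called 0 of the 8 genes, with 3 at an unadjusted p under 0.05, and 0 of 12379 tested genes in either direction. The same fit without MNA replicate 2 called 4 of the 8 higher, with 5 at an unadjusted p under 0.05, and 3428 of 12589 genes higher and 3234 lower. Both comparisons use the same DMSO libraries, so their values are given side by side for each gene and no agreement between them is read.

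**Figure D2:**
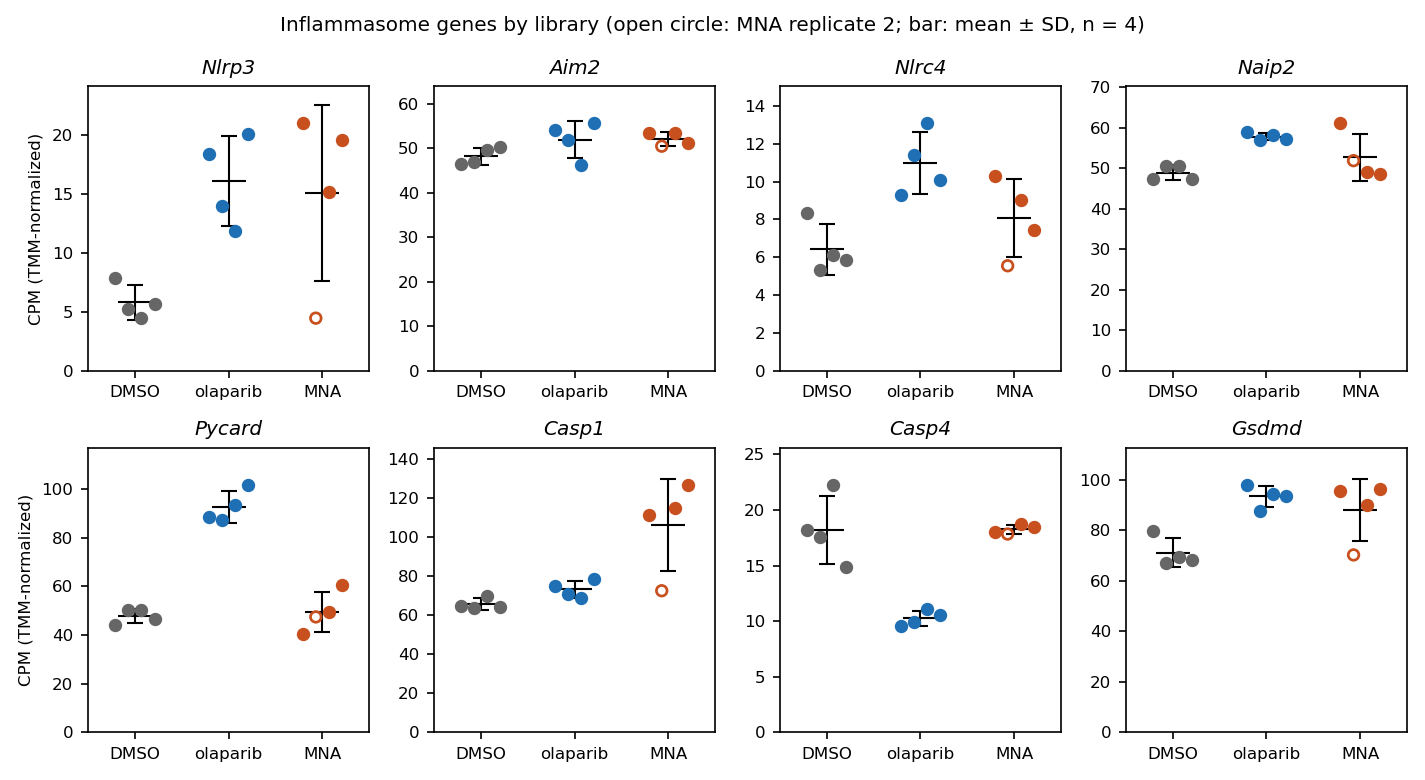
TMM-normalized CPM of the 8 genes in each of 12 libraries, one panel per gene; points are libraries, the open circle is MNA replicate 2, and bars show the mean ± SD of 4 libraries. Pycard is high and Casp4 low in the 4 olaparib libraries alone, and Casp1 is highest in 3 MNA libraries at 111 to 127 CPM.

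Among the sensors, Nlrp3 (ENSMUSG00000032691, GRCm38 chromosome 11, 59541568 to 59566956, plus strand) differed most. Its level was 7.92, 5.23, 4.52 and 5.65 CPM in DMSO replicates 1 to 4, on 135 to 178 counts. With olaparib it was 18.4, 14.0, 11.9 and 20.1 CPM, and with MNA it was 21.02, 4.48, 15.2 and 19.6 CPM. All olaparib libraries and 3 MNA libraries lay above the highest DMSO library, and MNA replicate 2 lay just below the lowest. The log2 fold change was 1.47 ± 0.38 (SE) with olaparib, a 2.78-fold rise (adjusted p = 0.0152, edgeR). With MNA it was 1.37 ± 0.38 (adjusted p = 0.0247), and 1.69 without replicate 2 (adjusted p = 9.85e-06). The MNA call was lost when DMSO replicate 2, 3 or 4 or MNA replicate 1, 3 or 4 was dropped from the fit. The adjusted p then reached at most 0.0758, with log2 fold changes from 1.17 upward. These monocyte markers moved with it, at 0.127 to 0.375 CPM in sum with DMSO, 1.35 to 2.37 with olaparib and 1.04 to 5.47 with MNA without replicate 2 (0.143 in that replicate), and their part in the result was not tested. Neutrophil markers summed to 1.21 to 7.22 CPM with DMSO and 2.79 to 3.46 with olaparib, with Ly6g at 0 in both groups. They were highest in MNA replicate 4. Without that library the MNA difference in Nlrp3 was 1.22, where fits with any 1 library left out gave 1.17 to 1.69. Dropping replicate 4 also gives replicate 2 more weight in the MNA group, so the 1.22 says nothing about neutrophils. The part of neutrophil content in the result was not tested either.

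Aim2 (ENSMUSG00000037860, chromosome 1, 173350879 to 173466040, plus strand), the DNA sensor, differed little between the groups. It had 46.4, 46.8, 49.6 and 50.2 CPM with DMSO, 54.1, 51.9, 46.2 and 55.6 with olaparib, and 53.4, 50.5, 53.5 and 51.1 with MNA. Every MNA library lay above every DMSO library by a small margin, and the olaparib libraries spanned the DMSO range. The log2 fold change was 0.11 with olaparib (95% interval −0.03 to 0.25, adjusted p = 0.229, edgeR) and 0.11 with MNA (−0.03 to 0.25, adjusted p = 0.196). These intervals exclude a change of the size seen for Nlrp3 but not a small rise. Of its 31-base words, 4.89% also occur in another gene on the same strand.

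Nlrc4 (ENSMUSG00000039193, chromosome 17, 74425438 to 74459142, minus strand) encodes the scaffold that NAIP proteins engage. It had 8.34, 5.33, 6.10 and 5.87 CPM with DMSO, 9.29, 11.4, 13.1 and 10.1 with olaparib, and 10.3, 5.55, 9.03 and 7.44 with MNA. The olaparib libraries all lay above DMSO, whereas the MNA libraries overlapped DMSO even without replicate 2, because MNA replicate 4 was below DMSO replicate 1. The rise with olaparib was 0.78 ± 0.20 on the log2 scale (adjusted p = 0.0143, edgeR). The MNA value was 0.34 (95% interval −0.09 to 0.77, adjusted p = 0.204), and 0.48 without replicate 2, where it was called (adjusted p = 0.0253).

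Naip2 (ENSMUSG00000078945, chromosome 13, 100144063 to 100202092, minus strand) encodes a receptor for a bacterial secretion-system rod protein. Its level is uncertain, since 32.7% of its 31-base words occur in other genes, among them Naip1 (21.1%), Naip3 and Naip6 (17.8%). What this sharing did to its counts was not tested. DMSO libraries had 47.4, 50.5, 50.7 and 47.3 CPM, olaparib libraries 58.9, 57.0, 58.2 and 57.3, and MNA libraries 61.2, 51.9, 49.1 and 48.7. The olaparib group was tight and above DMSO, and the MNA group was spread by replicate 1. The olaparib rise was small, 0.24 ± 0.07 on the log2 scale (adjusted p = 0.0286, edgeR). It was not called when DMSO replicate 1, 2 or 4 or any olaparib library was left out (highest adjusted p 0.0786), nor without the filter on low counts (adjusted p = 0.0603). With MNA the difference was 0.11 (95% interval −0.05 to 0.26).

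Pycard (ENSMUSG00000030793, chromosome 7, 127989708 to 127993867, minus strand), with a PU.1 core in its start region, encodes the adaptor between sensors and caspase-1. With DMSO it had 44.3, 50.2, 50.4 and 46.6 CPM. With olaparib it had 88.4, 87.3, 93.6 and 102 CPM, and with MNA 40.4, 47.5, 49.6 and 60.5. The lowest olaparib library stood well above the highest of both other groups, and the MNA libraries surrounded the DMSO range. Olaparib raised it 1.94-fold, a log2 fold change of 0.95 ± 0.11 (adjusted p = 1.52e-04, edgeR), and this ranged from 0.90 to 0.98 over 20 alternatives. The MNA value was 0.05 (95% interval −0.18 to 0.28, adjusted p = 0.749), so a rise of the olaparib size lay outside its interval. In Pycard 12.7% of 31-base words occur in other genes on the opposite strand, mainly in Gm45205, which was not analysed here. Which strand column the counts come from is not given in the sources used here.

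Casp1 (ENSMUSG00000025888, chromosome 9, 5298517 to 5307265, plus strand) encodes the protease that matures IL-1 beta and IL-18. It had 64.7, 63.6, 70.0 and 64.3 CPM with DMSO and 74.8, 70.8, 68.9 and 78.4 with olaparib. With MNA it had 111, 72.5, 115 and 127 CPM. MNA libraries lay above every DMSO library, with replicate 2 above by little and the other 3 far above, and olaparib replicate 3 lay inside the DMSO range. The rise with MNA was 0.70 ± 0.13 on the log2 scale, 1.62-fold (adjusted p = 0.0142, edgeR), and 0.84 ± 0.06 without replicate 2 (adjusted p = 1.15e-07). In the fit of MNA and DMSO libraries alone the adjusted p was 0.0640. With olaparib the difference was 0.16 (95% interval −0.13 to 0.45, adjusted p = 0.394). Without MNA replicate 2 the same value, 0.16, was called (adjusted p = 0.0441), and the common dispersion of the fit was 0.0123 in place of 0.0333.

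Casp4 (ENSMUSG00000033538, chromosome 9, 5308828 to 5336783, plus strand), the neighbour of Casp1 and the gene of the lipopolysaccharide-binding caspase, was the member that fell. It had 18.2, 17.6, 22.3 and 14.9 CPM with DMSO, 9.57, 9.90, 11.1 and 10.6 with olaparib, and 18.01, 17.8, 18.8 and 18.5 with MNA. Every olaparib library lay below every library of both other groups, and MNA libraries sat inside the DMSO range. Olaparib lowered it to 0.564-fold (log2 fold change −0.83 ± 0.11, adjusted p = 5.24e-04, edgeR), with −0.91 to −0.71 over 20 alternatives. With MNA the value was 0.0039 (95% interval −0.23 to 0.24). The count ratio of Casp4 to Casp1 within a library, which needs no normalization, was 0.281, 0.276, 0.318 and 0.231 with DMSO and 0.128, 0.140, 0.161 and 0.135 with olaparib. With MNA it was 0.162, 0.163 and 0.146, and 0.246 in replicate 2. Both treatments thus had ratios below DMSO outside MNA replicate 2, with a lower level of Casp4 under olaparib and a higher level of Casp1 under MNA. The ratio of Pycard to Casp1 moved apart, at 0.730 ± 0.0436 with DMSO, 1.27 ± 0.0768 with olaparib and 0.482 ± 0.124 with MNA (SD, n = 4). In MNA replicates 1, 3 and 4 it was 0.364, 0.431 and 0.478, all below that MNA mean, and in replicate 2 it was 0.655.

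Gsdmd (ENSMUSG00000022575, chromosome 15, 75862327 to 75867408, plus strand) encodes the pore protein cleaved by both caspases. It had 79.8, 67.1, 69.4 and 68.3 CPM with DMSO, 98.0, 87.8, 94.2 and 93.6 with olaparib, and 95.4, 70.2, 89.97 and 96.4 with MNA. The olaparib libraries and 3 MNA libraries lay above DMSO, and MNA replicate 2 lay inside the DMSO range. The rise was 0.39 ± 0.10 with olaparib (log2, adjusted p = 0.0120, edgeR) and 0.31 ± 0.10 with MNA (adjusted p = 0.0352). Without MNA replicate 2 it was 0.40 with MNA (adjusted p = 1.44e-04). With DMSO replicate 2, 3 or 4 or MNA replicate 1, 3 or 4 left out the MNA call was lost (highest adjusted p 0.105).

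**Figure D3:**
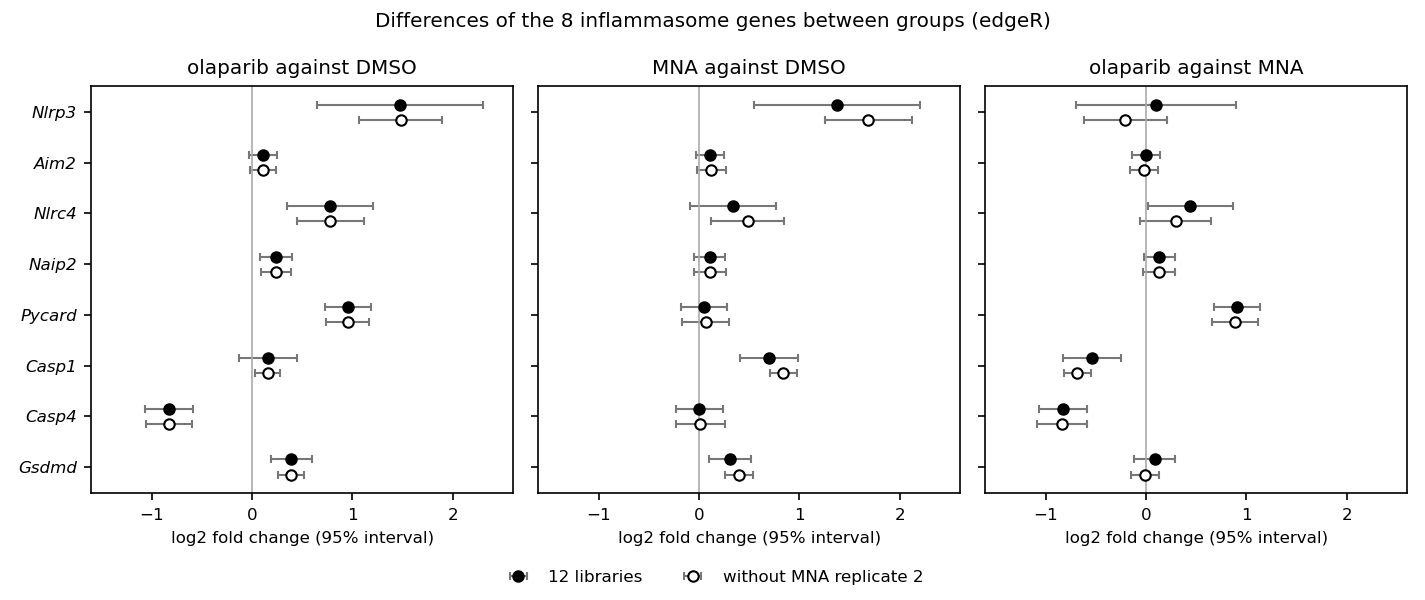
Log2 fold change of the 8 genes in the 3 comparisons, with 95% intervals from edgeR; filled points use 12 libraries and open points leave out MNA replicate 2. Pycard (0.95 and 0.91) and Casp4 (−0.83 and −0.83) are apart in both comparisons that hold olaparib, and the intervals of Nlrp3 and Casp1 narrow without MNA replicate 2.

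Olaparib and MNA were then compared directly, which tests where the treatments differ. Pycard was called higher with olaparib by 0.91 ± 0.11 on the log2 scale (adjusted p = 1.73e-04, edgeR), against 10.9% of all genes called higher. Casp4 was lower by a log2 fold change of −0.83 ± 0.11 (adjusted p = 3.80e-04) and Casp1 by −0.54 ± 0.13 (adjusted p = 0.0140), against 10.9% of all genes called lower. Groups did not overlap for Pycard, higher (11.5% of all genes), and Casp4, lower (9.69%). Without MNA replicate 2 the same 3 genes were called, the Casp1 difference was −0.68 (adjusted p = 1.72e-06), and its groups did not overlap either. The background was then 21.5% higher and 20.7% lower by the test, and 23.5% and 22.8% by overlap. For Nlrp3 the difference was 0.10 with a wide interval of −0.70 to 0.89, and −0.21 (−0.62 to 0.21) without MNA replicate 2, so its sign depended on that library. Gsdmd differed by 0.09 (−0.12 to 0.29) and Aim2 by −0.0041 (−0.14 to 0.14). Nlrc4 differed by 0.44 (0.02 to 0.87, adjusted p = 0.128) and Naip2 by 0.13 (−0.02 to 0.29). These misses do not show that the treatments act alike on those genes. Leaving out MNA replicate 1 brought Naip2 to 0.21 (adjusted p = 0.0207).

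MNA replicate 2 was read against both neighbours gene by gene. Its 47.5 CPM of Pycard, 17.8 of Casp4, 5.55 of Nlrc4 and 70.2 of Gsdmd lay within the DMSO range. Its Casp1, Aim2 and Naip2 levels lay above that range and its Nlrp3 level below it. Within the range of the other 3 MNA libraries lay Pycard and Naip2.

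**Figure D4:**
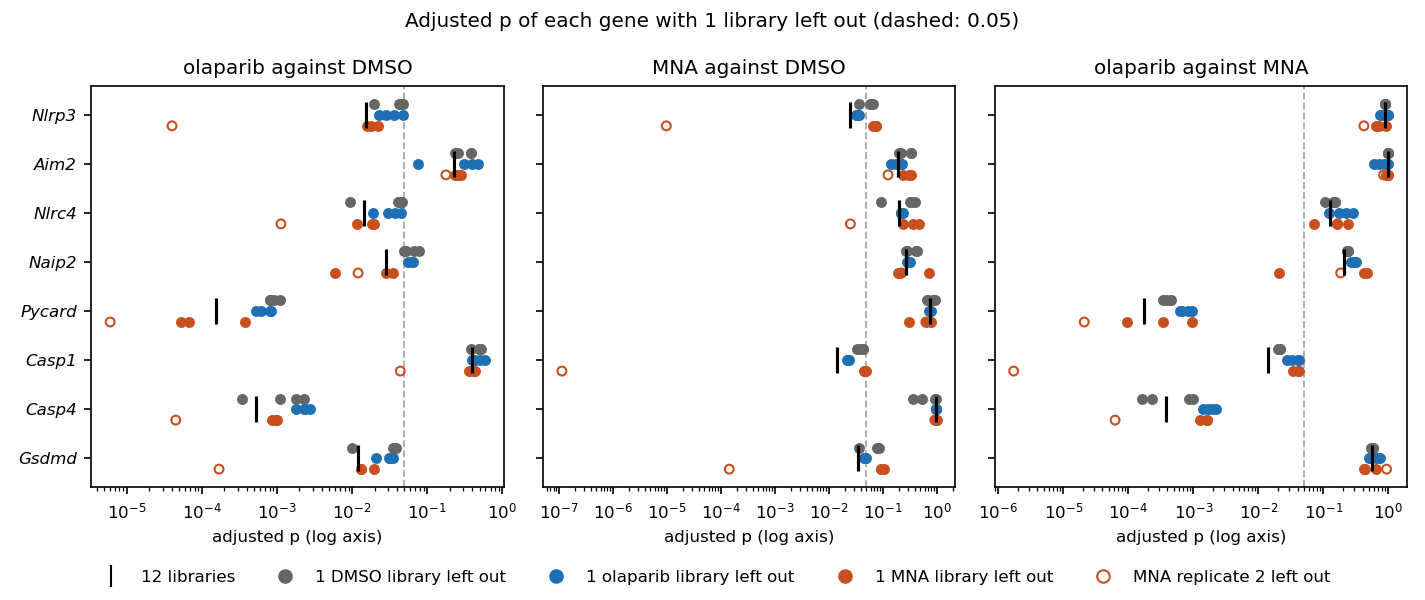
Adjusted p (log axis) of each gene in the 3 comparisons with all 12 libraries (bar) and with 1 library left out (points, coloured by its group; open circle, MNA replicate 2); the dashed line is 0.05. The olaparib calls of Pycard and Casp4 stay at or below 0.0028 throughout, the MNA calls of Nlrp3 and Gsdmd cross the line, and every call has a smaller p without MNA replicate 2.

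The wider pathway was read from 56 listed genes in 7 groups, of which 51 were tested. Nlrp1a, Nlrp6, Nlrp12 and Casp12 had low counts (at most 13 in a library), and Gbp5 was not analysed here. With olaparib 10 (19.6%) were called higher and 3 (5.88%) lower, against 14.3% and 12.8% of all tested genes, with a median log2 fold change of 0.17. With MNA it was 19 (37.3%) higher and 4 (7.84%) lower, against 16.3% and 12.3%, with a median of 0.22. Between the treatments 8 (15.7%) were higher and 12 (23.5%) lower with olaparib, against 10.9% in each direction, with a median of −0.11 (−0.013 over all genes). Without MNA replicate 2 the counts were 19 and 7 with olaparib (22.5% and 21.2% of all genes), 25 and 10 with MNA (27.2% and 26.9%), and 15 and 22 between the treatments (21.5% and 20.7%). When each of the 12 libraries was left out in turn, 8 of the 10 higher and 2 of the 3 lower olaparib calls held in every fit. Of the MNA calls 6 of 19 higher and 0 of 4 lower did, and between the treatments 5 of 8 higher and 7 of 12 lower.

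Relatives of the sensors were higher with olaparib in 6 of 9 tested genes (14.3% of all genes), and in 1 of 9 with MNA (16.3%). Nlrp10, a small NLR gene without the usual repeats, had 15.9, 13.8, 13.1 and 13.6 CPM with DMSO and 34.3, 42.0, 38.7 and 36.9 with olaparib, a log2 fold change of 1.43 ± 0.08 (adjusted p = 3.33e-06, edgeR). With MNA it had 14.3, 14.7, 14.2 and 13.2 CPM. Thus the olaparib libraries were apart from both other groups. Nlrx1, a mitochondrial NLR, rose by 1.95 with olaparib (adjusted p = 7.42e-04) and 1.36 with MNA (adjusted p = 0.0142). Naip5, a flagellin receptor, rose from 7.87 to 9.75 CPM with DMSO to 13.8 to 15.6 with olaparib (log2 fold change 0.70, adjusted p = 8.66e-04). Naip1, Naip6 and Nlrp1b were also called with olaparib. Naip1, Naip5 and Naip6 share 44.3%, 52.6% and 35.0% of their 31-base words with other genes, mainly of the same family. Their levels are therefore uncertain, and what the sharing did to their counts was not tested.

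Caspases and kinases of other death programmes moved in part. Fadd, an apoptosis adaptor, was lower with olaparib (−0.56, adjusted p = 0.00400, edgeR), as was Ripk1 by a small margin (−0.15, adjusted p = 0.0470). The Ripk1 call was lost on omitting any 1 olaparib or DMSO library, and without MNA replicate 3 or 4 (highest adjusted p 0.119). Of the pore group, Mlkl, the effector of necroptosis, and Ninj1, which ruptures membranes of dying cells, were higher with MNA (0.62, adjusted p = 0.0158, and 0.39, adjusted p = 0.0487). Chmp4b, of the membrane repair machinery, was lower with MNA (−0.28, adjusted p = 0.0438). The calls of Ninj1 and Chmp4b were each lost when any 1 library other than MNA replicate 2 was left out (highest adjusted p 0.142 and 0.106), and that of Mlkl without MNA replicate 3 or 4 (0.0545). With olaparib the 4 pore genes had log2 fold changes from −0.14 (Chmp4b) to 0.22 (Ninj1), none of them past the test in edgeR (lowest unadjusted p 0.141).

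The cytokine substrates were scarce in these cells. Il1b, the precursor of IL-1 beta, had 0.0317 to 0.375 CPM with DMSO, 0.0421 to 0.530 with olaparib and 0.0716 to 0.740 with MNA, and was not called. Il18 had 1.11 to 1.69 CPM with DMSO, 1.85 to 2.20 with olaparib and 1.25 to 2.35 with MNA. Its olaparib value of 0.64 on the log2 scale had an adjusted p of 0.0633 (edgeR), and 0.0280 without MNA replicate 2. Il1a, which needs no caspase-1 cleavage to signal, was lower with MNA (−2.03 ± 0.57, adjusted p = 0.0259), at 0.206, 0.895, 0.193 and 0.0402 CPM against 0.889 to 2.25 with DMSO. This MNA call was lost with MNA replicate 1, 3 or 4 or DMSO replicate 2 or 3 left out (highest adjusted p 0.0797). With olaparib Il1a had 2.32 to 3.49 CPM, a log2 fold change of 0.99 (adjusted p = 0.151, edgeR, and 0.0164 without MNA replicate 2). Between the treatments it was higher with olaparib by 3.02 (adjusted p = 0.00328, edgeR).

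The genes listed around NLRP3 licensing were not sorted into those that promote NLRP3 and those that restrain it. Among them Panx1, a channel for ATP, was higher with both agents (1.10 with olaparib, adjusted p = 8.37e-04, and 0.76 with MNA, adjusted p = 0.0142, edgeR). Trim30a was also higher with both (0.48 with olaparib, adjusted p = 0.0153, and 0.57 with MNA, adjusted p = 0.0151, edgeR). Hsp90ab1, a chaperone that holds NLRP3 ready, was higher with MNA (0.46, adjusted p = 0.0158), and Brcc3, which removes ubiquitin from NLRP3, was the gene of this group called lower with MNA. The MNA calls of Trim30a and Hsp90ab1 were lost without MNA replicate 3 or 4 (highest adjusted p 0.0522 and 0.0538), and that of Brcc3 without any 1 DMSO library or MNA replicate 1, 3 or 4 (0.0996). Trim30a and Hsp90ab1 share 11.7% and 13.2% of their 31-base words with other genes. Of the inhibitors, Dpp9, which restrains NLRP1, was lower with olaparib (−0.30, adjusted p = 0.00711). With MNA, Il18bp, which binds secreted IL-18, was higher (1.12, adjusted p = 0.0227) and Tnfaip3, a brake on NF-kappaB, was lower (−0.77, adjusted p = 0.0232). Both were lost without DMSO replicate 2 or MNA replicate 1, 3 or 4, and Tnfaip3 also without DMSO replicate 3 (highest adjusted p 0.0723 and 0.0729).

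Upstream sensing and transcription was the group with most calls under MNA, 9 of 12 higher (16.3% of all genes), and 1 of 12 was higher with olaparib (14.3%). Gbp2 belongs to the guanylate-binding proteins, which coat bacteria and open their lipopolysaccharide to caspase-11. It had 36.1, 36.7, 49.6 and 40.2 CPM with DMSO and 36.4, 41.0, 53.1 and 49.7 with olaparib. In MNA replicates 1, 3 and 4 it had 271, 306 and 356 CPM, and 36.5 in replicate 2 (2.57 ± 0.49, adjusted p = 0.0142, edgeR). Its relatives Gbp7 and Gbp3 rose by 2.92 ± 0.54 and 2.07 ± 0.43 with MNA, again outside replicate 2, which had 7.74 and 12.5 CPM. Gbp7 shares 14.7% of its words with other genes. Irf1, a transcription factor of the interferon response, was called higher with MNA as well. Zbp1, a sensor of nucleic acids, was called higher with olaparib (0.84, adjusted p = 0.0397) and also with MNA. Its olaparib call was lost without any 1 DMSO library or olaparib replicate 1, 3 or 4 (highest adjusted p 0.0937), and its MNA call without MNA replicate 1, 3 or 4 (0.0646). Between the treatments 8 of the 12 were lower with olaparib (10.9% of all genes), with Gbp7 at −2.71 (adjusted p = 0.00423) and Tlr4, the receptor of extracellular lipopolysaccharide, at −0.77 (adjusted p = 0.00211).

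**Figure D5:**
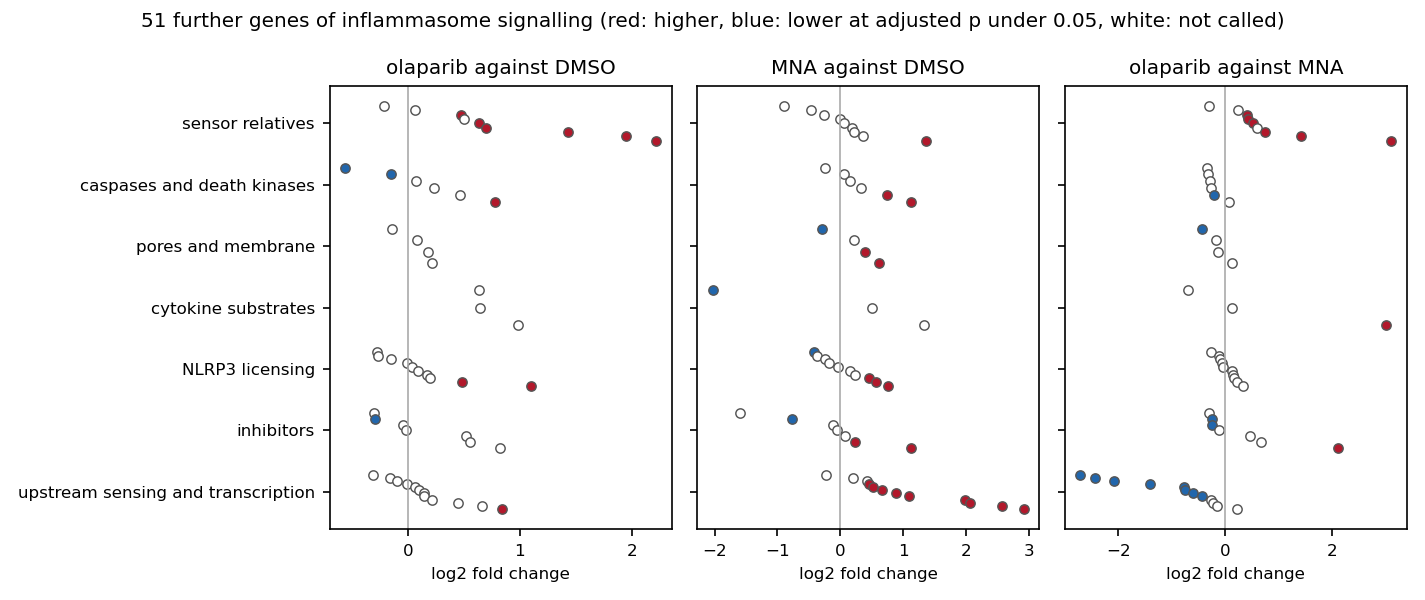
Log2 fold change of 51 further genes of inflammasome signalling in 7 functional groups for the 3 comparisons; each point is a gene, red for called higher, blue for called lower and white for not called. The sensor relatives are to the right with olaparib (6 of 9 higher), and the upstream sensing group is to the right with MNA (9 of 12).

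The genes whose levels followed a member most closely were found by the mean absolute difference in centred log2 CPM over 12 libraries, among 9524 protein-coding genes. For Pycard they were Hnmt (0.108) and Ethe1 (0.113), for Casp4 Lfng (0.115) and Wars (0.120), and for Casp1 Bri3bp (0.0611) and Dbnl (0.0646). For Nlrp3 they were Fmnl1 (0.139) and Rcsd1 (0.166), and for Nlrc4 Selplg (0.0869) and Il10ra (0.101). Gsdmd was nearest to Hdgfl2 (0.0446) and Pbx2 (0.0509), and Naip2 to Flot2 (0.0509) and Map3k7 (0.0520). Each distance is to be read against the mean absolute deviation of the member itself. That was 0.119 for Naip2, 0.195 for Gsdmd, 0.283 for Casp1, 0.361 for Nlrc4, 0.366 for Casp4, 0.417 for Pycard and 0.787 for Nlrp3. The small distances of Naip2 and Gsdmd thus come with levels that varied little. The points share libraries and depth, so this is a description alone.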

How the data were processed

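RNA of 12 libraries was measured, 4 each for DMSO, olaparib and MNA, and groups follow the sample titles. The authors aligned reads to GRCm38 (per the labels, STAR 2.5.2b, GRCm38.p5 or mm10) and deposited raw counts per Ensembl gene, without normalization. Total counts were 21146291 to 31446849. The 95% intervals of log2 fold changes come from the fit and include the spread between libraries. Symbols, positions and exon lengths came from GENCODE M21, which held 34490 of the 35275 identifiers.

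Genes were kept by filterByExpr (minimum count 10, minimum total 15). The test was the quasi-likelihood F test of edgeR 4.0.16 under R 4.3.3 after TMM scaling, with groups as the only term, and adjusted over 12849 genes by Benjamini-Hochberg. The standard error was taken from the F value. Alternatives were DESeq2 1.42.0, RLE and upper-quartile normalization, no filter, a mean of at least 50 counts, fits of 2 groups alone, the replicate number as a block, and each library left out. The fit of 2 groups alone with MNA replicate 2 left out was added after the data were seen. The 8 genes and the pathway and marker lists were chosen with earlier results of these data known. All 8 genes are named in every comparison. Of the pathway list, called genes are named, with values for at most the 3 with the smallest p in a group and comparison, while Il1b and Il18 were named after their values were seen. Some genes of the pathway and marker lists are not reported here, but the counts over the pathway list include them. Monocyte sums cover only the reported markers.

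Same-numbered olaparib and DMSO libraries deviated together (Pearson r across genes 0.227, 0.172, 0.225 and 0.408). Libraries of unlike number were not compared, so these values do not establish that the numbers pair them. For same-numbered MNA and DMSO libraries r was 0.242, 0.114, −0.00938 and 0.277. Whether a number marks the same mouse in each group is not given in the sources used here. No 2 libraries of a group agreed within sampling noise. Simulated counts for 12393 genes with 200 changed gave 192 recovered (92 of 100 at 2-fold, 100 of 100 at 4-fold) and 5 false calls. Changes were set only between olaparib and DMSO, in genes above a minimum DMSO level. These rates therefore do not cover scarce genes or the MNA comparisons. Likeness used genes that averaged 100 counts or more. Shared 31-base words and promoter motifs were counted with Python 3.11.15.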

Additional observations from a re-analysis of the deposited data

Results flagged for a closer look

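Of 24 sets of 4 libraries (8 genes in 3 groups), 1 held a library far from the others. Casp1 in DMSO replicate 3 stood at 70.0 CPM, above the other 3 DMSO libraries at 63.6 to 64.7 CPM. Chance marks about 5% of such sets. The Casp1 differences were called with MNA and not with olaparib whichever 1 DMSO library was left out.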

How the results depend on the processing

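The olaparib calls of Pycard, Casp4, Nlrp3, Nlrc4 and Gsdmd kept their direction and their side of 0.05 under all 20 alternatives, with log2 fold changes of 0.90 to 0.98, −0.91 to −0.71, 1.34 to 1.65, 0.68 to 0.92 and 0.36 to 0.45. The counts of the 8 genes called higher and lower with olaparib were 4 to 6 and 1 when 1 library was left out. With MNA 1 to 4 were higher, and between the treatments 1 to 2 were higher and 2 lower with olaparib. The fit of 2 groups alone called 0 of the 8 with MNA, and 4 higher when MNA replicate 2 was also left out.

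Of the pathway list, leaving out 1 library gave 8 to 19 higher and 2 to 7 lower with olaparib, 6 to 25 and 0 to 10 with MNA, and 5 to 15 and 7 to 22 between the treatments. The highest counts were those without MNA replicate 2. Fits of 2 groups alone gave 20 and 8 with olaparib and 0 and 0 with MNA (22 and 7 at an unadjusted p under 0.05). Between the treatments these fits gave 5 higher and 8 lower. The replicate block changed no call of the 8 genes in the 12 libraries and gave 15 of the pathway list higher with olaparib in place of 10. With the replicate block and MNA replicate 2 left out, the list had 21 and 8 with olaparib, 28 and 10 with MNA, and 16 and 22 between the treatments. The 2 groups alone without MNA replicate 2 gave 26 and 10 with MNA and 12 and 21 between the treatments.

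Directions reversed only for values near 0 or with wide intervals, and the cause was not tested. Aim2 between the treatments was 0.0087 with upper-quartile normalization and 0.012 with a mean of at least 50 counts, Casp4 with MNA was −0.00028 without the filter, Nlrp3 between the treatments was −0.17 with the block and −0.20 in 2 groups alone, both without MNA replicate 2, and Gsdmd there was −0.0076. With 1 library left out, the ranges that crossed 0 were −0.063 to 0.13 for Pycard and −0.084 to 0.12 for Casp4 with MNA, and −0.045 to 0.050 for Aim2, −0.21 to 0.30 for Nlrp3 and −0.0077 to 0.13 for Gsdmd between the treatments. Depth limits Il1b, Il18, Il1a and Naip1, whose levels were at most 3.49 CPM in any library. Calls of the 8 genes were lost under some alternative for Naip2 with olaparib and for Nlrp3, Gsdmd and Casp1 with MNA, and gained for Casp1 with olaparib, Nlrc4 with MNA and Naip2 between the treatments.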
